A study of Mus musculus with 25 samples.

Results

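Cells make foreign chemicals, hormones and bile acids water soluble by attaching a group to them, and 3 enzyme superfamilies do most of this work: the glutathione transferases (GST), the UDP-glucuronosyltransferases (UGT) and the cytosolic sulfotransferases (SULT). Their genes were described in sperm RNA as 61 of the 24358 genes in the deposited table. Members were matched by gene symbol, as the cytosolic and kappa class Gst genes, the Ugt1, Ugt2, Ugt3 and Ugt8 genes and the Sult genes. No measured value entered this match, but the families, lists and thresholds were chosen with earlier results of these data known. They comprised 21 GST, 21 UGT and 19 SULT genes.

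The study asked how prenatal exposure to di(2-ethylhexyl)phthalate (DEHP), a plasticiser, acts on males of the inbred mouse strains C57BL/6J and FVB/N. Pregnant females received 300 mg/kg/day DEHP (D300) or the corn oil vehicle (CTL) by mouth from embryonic day 9 to 19. Sperm that swam out of the incised cauda epididymis of males aged 14 weeks was sequenced by all-RNA-seq, in which RNA ends are first made uniform so that adapters can join any RNA. There were 5 conditions of 5 libraries each. First generation C57BL/6J males born to females given vehicle are called C57 vehicle here (C57.CTL.F1 in the figures), and those born to females given DEHP are called C57 exposed (C57.D300.F1). The same groups of FVB/N are FVB vehicle (FVB.CTL.F1) and FVB exposed (FVB.D300.F1). C57 F2 (C57.D300.F2) are C57BL/6J sons of exposed first generation males and unexposed females. Dosing stopped with the mothers of the first generation, and the design held no second generation of the vehicle lineage. In comparisons of C57 F2 with C57 vehicle, generation and descent from dosed females therefore cannot be told apart. Both C57BL/6J first generation conditions, 10 libraries in all, were reused from earlier work, while 15 libraries were new, so the set of libraries cannot be told apart from the generation or the strain in comparisons of C57 F2 or FVB/N with them.

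For each gene and condition the table gives 1 estimated count that combines the 5 libraries, with its variance under the authors' model. No value of a single library was used, so there is no spread between replicates, no test and no p-value, and every ratio below is a description of these conditions. The square root of the model variance is called the model SD. A gene was counted as higher or lower where the log2 ratio of counts, with 1 added to each, reached 2 or −2, among genes with a mean of at least 10 counts over the 5 conditions. The limit of detection was set at 3 counts, and a fold against a count no higher than this is given as a lower bound.

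The counts summed to between 6921688 and 8602900 per condition. All 12 markers of sperm and late germ cells were detected in every condition, and their summed counts were 96340.2, 81064, 32996, 8215 and 9787 in C57 vehicle, C57 exposed, C57 F2, FVB vehicle and FVB exposed, the order used below for values in all 5 conditions. Markers of other tissues were present as well. Those of liver summed to 223515, 201757, 5674, 1435 and 992 counts in the same order, with all 12 above 3 counts in every condition. Seminal vesicle markers summed to 231112 counts in C57 vehicle and to between 689.5 and 2139 in the other conditions, and epididymis markers to 40053 in FVB exposed and between 172 and 270.1 in the others. Markers of smooth muscle and connective tissue summed to 38118, 40754, 41913, 35189 and 28173 counts, above the germ cell sums in C57 F2 and both FVB/N conditions. Blood markers summed to between 3182 and 10792 counts. In a bulk sample, fewer cells of a type and less RNA per cell cannot be told apart.

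As background, GST enzymes add glutathione to electrophiles and to products of lipid peroxidation, UGT enzymes add a sugar, usually glucuronic acid from UDP-glucuronic acid, and SULT enzymes add sulfate from the donor PAPS. The liver is the organ best known for this work, and the UGT2B and SULT2A enzymes there act on steroids and bile acids. In the male tract, mu class GST proteins are known from testis and sperm, SULT1E1 is the estrogen sulfotransferase, and UGT8 makes the glycolipid precursor of seminolipid. Metabolites of DEHP are themselves excreted in part as glucuronides.

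Per kb of exon, the mu class GST genes held most of the conjugating enzyme RNA in every condition, with 56.6%, 63.4%, 80.1%, 77.7% and 79.3% of the members' counts per kb in C57 vehicle, C57 exposed, C57 F2, FVB vehicle and FVB exposed. Before division by length, their 7 genes summed to 18436, 18166, 12593, 11079.7 and 10806 counts. Of the 61 members, 43 had a mean of at least 10 counts (19 GST, 16 UGT and 8 SULT), and 18 did not. The members together held 42348.4 counts in C57 vehicle, 36574.0 in C57 exposed, 17173.1 in C57 F2, 15785.6 in FVB vehicle and 15104.0 in FVB exposed, or 0.492%, 0.472%, 0.248%, 0.209% and 0.182% of all counts. Divided by exonic length, all GST genes held 72.7%, 76.5%, 91.9%, 91.7% and 92.0% of the members' counts per kb in the 5 conditions in that order, UGT genes 18.7%, 15.6%, 2.29%, 1.94% and 1.86%, and SULT genes 8.62%, 7.96%, 5.76%, 6.37% and 6.17%. The GST share was therefore above 90% in the second generation and in both FVB/N conditions, where UGT genes were near 2%.

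**Figure D1:**
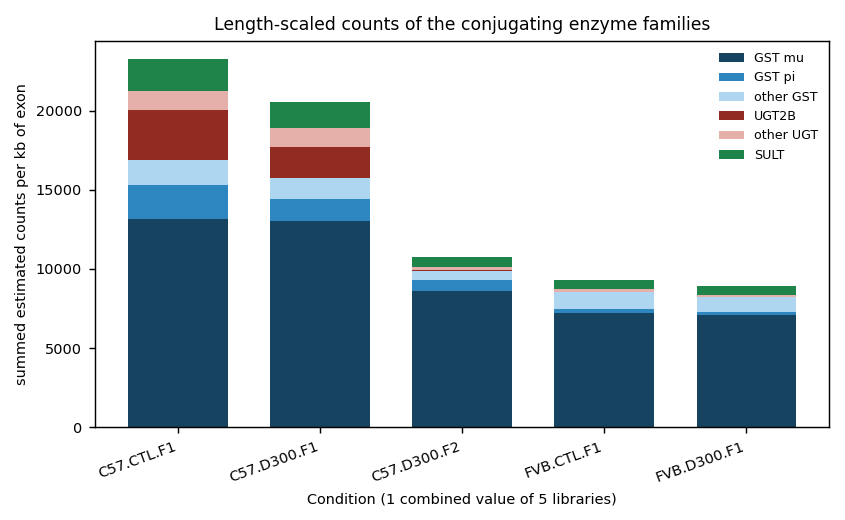
Summed estimated counts per kb of exon for each enzyme family, stacked, in the 5 conditions (1 combined value of 5 libraries each, no error bars because the counts of single libraries were not used). The GST mu block is the largest in every condition, and the red UGT2B block, 13.4% of the bar in C57 vehicle, is too thin to see in C57 F2 and the FVB/N conditions.

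Per kb of exon, Gstm5, a mu class gene known from testis and brain, ranked first in the 3 C57BL/6J conditions, with 34.6% of the members' counts per kb in C57 vehicle, 39.7% in C57 exposed and 35.6% in C57 F2. In both FVB/N conditions Gstm2 ranked first, with 27.1% and 24.0%. Gstp1, the pi class enzyme that acts on many electrophiles, ranked second in C57 vehicle with 9.05%.

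At the other end, 10 members had 3 or fewer counts in every condition: Gsta1, Sult2a1 to Sult2a7, Sult3a1 and Ugt2a2. The other 8 members below the mean of 10 were Gstp2, Sult1c1, Sult4a1, Sult6b1, Ugt1a10, Ugt2a1, Ugt2b37 and Ugt8a, whose highest single value was 12.1 counts, for Ugt1a10 in FVB vehicle. Ugt8a, the ceramide galactosyltransferase, ranged from 1.78 to 8.35 counts. Near the limit, the passing genes Gsta2, Ugt1a2 and Gstt2 had means of 13.1, 29.7 and 31.6 counts, and the excluded genes Sult6b1, Ugt1a10 and Gstp2 had 8.59, 7.64 and 5.16.

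**Figure D2:**
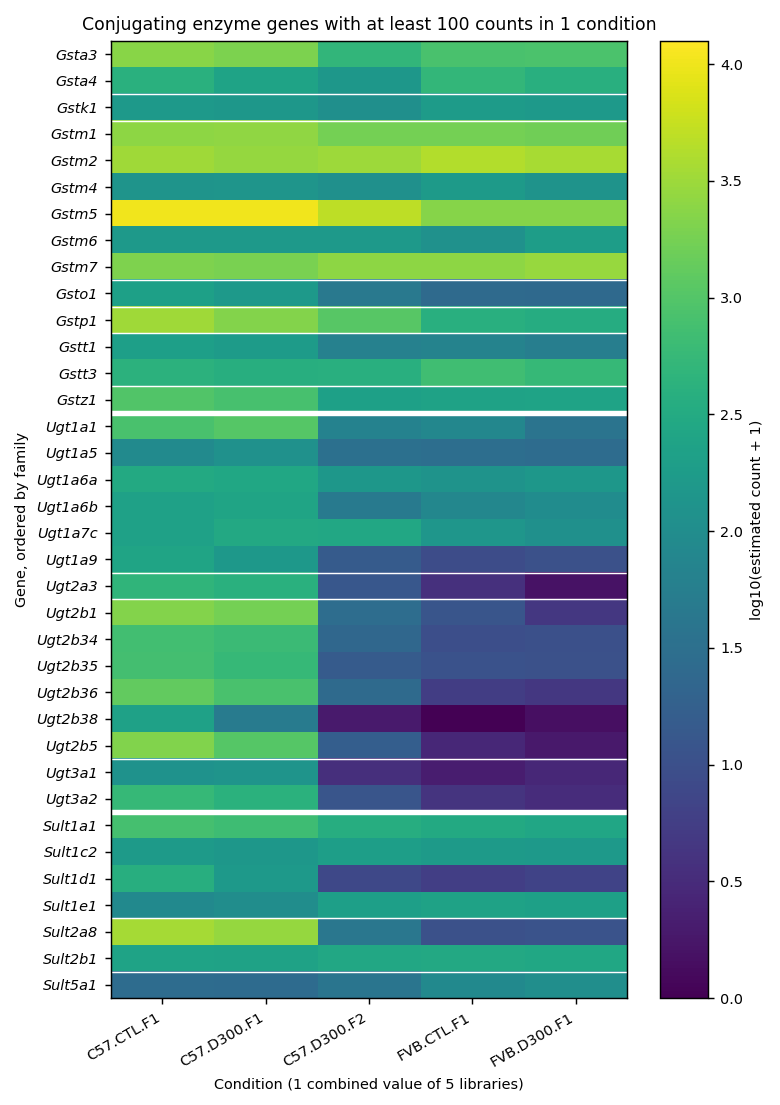
Estimated counts of the 36 members with at least 100 counts in 1 condition, as log10 of the count plus 1 (colour), with genes in rows grouped by family and the 5 conditions in columns. Rows of the UGT2B, UGT2A and UGT3 genes and Sult2a8 are bright in the left 2 columns and dark in the right 3, while Gstm2 and Gstm7 change little in colour across all columns.

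Few of these genes differed with prenatal DEHP in the first generation of C57BL/6J. Of the 43 members, 1 was lower and 0 were higher in C57 exposed than in C57 vehicle, beside 0.209% lower and 0.0299% higher of all genes, and the members' median log2 ratio was -0.20, against -0.01 for all genes. The single gene was Ugt2b38, a member of the UGT2B family of steroid and bile acid glucuronosyltransferases, with 224 counts (model SD 71.0) in C57 vehicle and 49.3 (model SD 17.4) in C57 exposed, a log2 ratio of -2.16. Its coding sequence is 97.0% identical to that of Ugt2b5, so reads could be split between both genes. Ugt2b5 had 2085 and 1029 counts, and the pair together had 2309.0 and 1078.8, a log2 ratio of −1.10 that lay short of the threshold. All 6 UGT2B genes that passed the filter on low counts had a log2 ratio below 0, with a median of -0.54. The estrogen sulfotransferase gene Sult1e1 had 88.0 and 100.4 counts.

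Differences of more than the model SD of the difference were found for 4 members in this comparison, all toward lower counts in C57 exposed, beside 6.31% of all genes in either direction. Besides Ugt2b38 and Ugt2b5 these were Sult1d1, a sulfotransferase of catecholamines, with 368 and 162 counts (log2 ratio -1.18), and Gsta4, which conjugates the lipid peroxidation product 4-hydroxynonenal, with 398 and 238 counts (log2 ratio -0.74). The 7 mu class genes lay between −0.18 and 0.09 on the log2 scale. The 12 liver markers had a median log2 ratio of -0.29 here, with 0 of them past the threshold, and the 8 seminal vesicle markers were all lower, with a median of -10.73. Their part in these values was not tested.

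In FVB/N, 0 of the 43 members were past the threshold in FVB exposed against FVB vehicle, beside 0.58% higher and 0.0239% lower of all genes, and the members' median log2 ratio was -0.03. More than the model SD separated the conditions for 3 members, beside 5.31% of all genes. Gstt4, a theta class gene, had 8.22 counts in FVB vehicle and 22.5 in FVB exposed, a log2 ratio of 1.35. Gstm6 had 115 and 191 counts, and Ugt2b1 had 11.3 and 3.59. All 12 epididymis markers were higher in FVB exposed, with a median log2 ratio of 7.49. Their part in the values of Gstt4 and Gstm6 was not tested.

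The log2 ratio of DEHP in FVB/N minus that in C57BL/6J passed 2 for 1 member, beside 0.879% of all genes in that direction. It was Ugt2b38, at 2.72. Both FVB/N conditions, at 0 and 0.470 counts, were at or below the limit of detection, so the FVB/N side of this difference could not be measured at this depth.

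Most UGT genes were lower in the sperm RNA of C57 F2 than in that of either C57BL/6J first generation condition. The C57 F2 libraries were new and those of both C57BL/6J first generation conditions were reused. Generation and library set therefore cannot be told apart here. Of the 43 members, 19 were lower and 0 were higher in C57 F2 than in C57 vehicle, beside 3.48% lower and 0.484% higher of all genes. The members' median log2 ratio was -1.50, against -0.04 for all genes. By superfamily, 12 of 16 UGT genes, 3 of 8 SULT genes and 4 of 19 GST genes were lower, with medians of -5.01, -0.47 and -0.67. Against C57 exposed, 16 members were lower and 0 higher, beside 3.22% lower and 0.317% higher of all genes. Both comparisons use the same second generation samples. Of the 19, 5 had fewer than 10 counts in C57 F2 and so passed the filter through the other conditions alone, and 27 of the 61 members had at least 10 counts in every condition.

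All 6 UGT2B genes that passed the filter were lower in the second generation. Ugt2b5 had 2085 counts in C57 vehicle and 1029 in C57 exposed but 15.6 (model SD 7.28) in C57 F2, 133-fold lower than the vehicle condition. Ugt2b1 had 2212, 1727 and 28.4 counts in the same conditions, 77.8-fold lower, and Ugt2b36 had 1308, 835 and 25.6, 51.1-fold lower. Both C57BL/6J first generation conditions were high and C57 F2 was low for each of these genes. Ugt2b34 went from 714 and 616 to 22.6 counts, Ugt2b35 from 738 and 548 to 14.2, and Ugt2b38 from 224 and 49.3 to 0.986, at least 74.7-fold lower than the vehicle condition. The UGT2B median was -5.93.

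The same held for other UGT genes outside the UGT1 locus. Ugt2a3, an enzyme known to glucuronidate bile acids, had 486, 404 and 11.8 counts in C57 vehicle, C57 exposed and C57 F2. Ugt3a2, which uses UDP-glucose in place of UDP-glucuronic acid, had 566, 417 and 11.2, and Ugt3a1, which uses UDP-N-acetylglucosamine, had 120.3, 132 and 2.52. In these 3 genes the log2 ratio to C57 vehicle lay between -5.53 and -5.11.

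The UGT1 genes gave a mixed and less certain picture. They are first exons of 1 locus that share their later exons. Between 50.3% and 60.6% of each gene's exon bases were shared with other genes of the locus on the same strand. These include Ugt1a8, which is not among the 61 members. The model SD was 1.08 times the count in the median over their values above 10 counts, against 0.301 for the other members. Ugt1a1, the bilirubin enzyme, had 841, 1059 and 65.6 counts and a log2 ratio of -3.66 to the vehicle condition, and its difference exceeded its model SD. Ugt1a9 (247, 153 and 14.0 counts) and Ugt1a6b (220.03, 246 and 48.8) were also past the threshold, but their differences did not exceed the model SD. The coding sequence of Ugt1a6b is 98.4% identical to that of Ugt1a6a, so reads could be split between both genes. Together this pair had 531.7, 520.9 and 194.4 counts, a log2 ratio of −1.45 to the vehicle condition that lay short of the threshold. In FVB vehicle and FVB exposed, Ugt1a6b had 76.9 and 97.9 counts. The other 4 were short of the threshold. In all 5 conditions, Ugt1a7c had 223, 299, 284, 142 and 113 counts, Ugt1a6a 312, 275, 146, 125 and 149.6 and Ugt1a5 91.8, 119.6, 31.9, 29.8 and 27.0. In the 3 C57BL/6J conditions, Ugt1a2 had 33.1, 36.4 and 38.7 counts. Summed over the 8 UGT1 genes, which removes the split between them, the counts were 1974, 2194, 631, 491 and 464 in the 5 conditions.

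Of the 8 SULT genes that passed the filter, Sult2a8, Sult1d1 and Sult1b1 were lower and the other 5 were short of the threshold. Sult2a8, a bile acid sulfotransferase of mouse liver, had 3507 counts in C57 vehicle, 2856 in C57 exposed and 41.5 in C57 F2, 84.5-fold lower than the vehicle condition. Sult1d1 had 368, 162 and 6.65 counts, and Sult1b1, which sulfates thyroid hormones and phenols, had 91.3, 87.4 and 6.37. Sult1e1 had 88.0, 100.4 and 205 counts, a log2 ratio of 1.21, and was the single member of the 43 above the vehicle condition by more than the model SD of the difference. Of the others, 24 were below it by more than that SD, beside 26.4% of all genes in either direction. Sult2b1, the cholesterol sulfotransferase, had 237, 228 and 286 counts, Sult1c2 171, 145 and 198, Sult1a1, the main phenol sulfotransferase, 777, 659.9 and 351, and Sult5a1 26.7, 26.4 and 37.9.

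Of the GST genes, 4 were lower. Gstm3 had 77.9, 76.4 and 4.81 counts in C57 vehicle, C57 exposed and C57 F2, a log2 ratio of -3.76 and the lowest of the GST genes. Gsta3, an alpha class enzyme with steroid isomerase activity, had 2376, 1923 and 491 counts (log2 ratio -2.27), Gstz1, the maleylacetoacetate isomerase of tyrosine breakdown, 966, 817 and 209.6 (-2.20), and Gsto1, the omega class dehydroascorbate reductase, 214, 155 and 45.3 (-2.22). These 4 had fewer counts in C57 F2 than in both first generation conditions of C57BL/6J. Against C57 exposed, however, only 1 of the 19 GST genes was past the threshold, Gstm3 (-3.73). Gsta3 (-1.97), Gstz1 (-1.96) and Gsto1 (-1.76) lay short of it there.

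The other mu class genes lay closer to the vehicle condition. Gstm5 had 10269, 10423 and 4895 counts (log2 ratio -1.07), Gstm1 2511, 2660.3 and 1769.8 (-0.50), Gstm2 3232, 2845 and 3137 (-0.04) and Gstm7 2055, 1856 and 2515 (0.29). With counts scaled to equal totals, which raised the median of all genes in this comparison to 0.27, the sign of the log2 ratio of Gstm2, Gstm4, Gstm6 and Gstt3 turned from below to above 0. Gstp1 had 3258, 2163 and 1079 counts (-1.59), and Gstp2, 98.1% identical to it in coding sequence, had at most 9.14. In all 5 conditions, Gstt1 had 205, 178, 61.4, 66.6 and 54.9 counts, Gsta4 398, 238, 145, 512 and 385, and Gstk1, the mitochondrial and peroxisomal form, 159.8, 148, 111, 179.8 and 164. The remaining GST genes that passed the filter, Gsta2, Gstm4, Gstm6, Gsto2, Gstt2, Gstt3 and Gstt4, lay between −0.77 and −0.04 on the log2 scale. Of these, Gstm4 had 130.2, 138, 115, 168 and 128 counts in the 5 conditions, Gstm6 162, 167, 157, 115 and 191, and Gstt3 423, 367, 384, 704 and 562.

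Liver markers were low in C57 F2, as were the UGT2B and UGT3 genes. All 12 were lower in C57 F2 than in C57 vehicle, with a median log2 ratio of -5.46, beside -5.93 for UGT2B and -5.32 for UGT3. Against C57 exposed all 12 were lower as well, with a median of -5.12. The 12 markers of sperm and late germ cells had a median of -1.09 against C57 vehicle, and 0 of them were past the threshold. All 8 seminal vesicle markers were also lower in C57 F2 than in C57 vehicle, with log2 ratios between -9.78 and -3.95. Against C57 exposed their log2 ratios lay between 0.26 and 4.27. The part of these lists in the members' values was not tested.

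**Figure D3:**
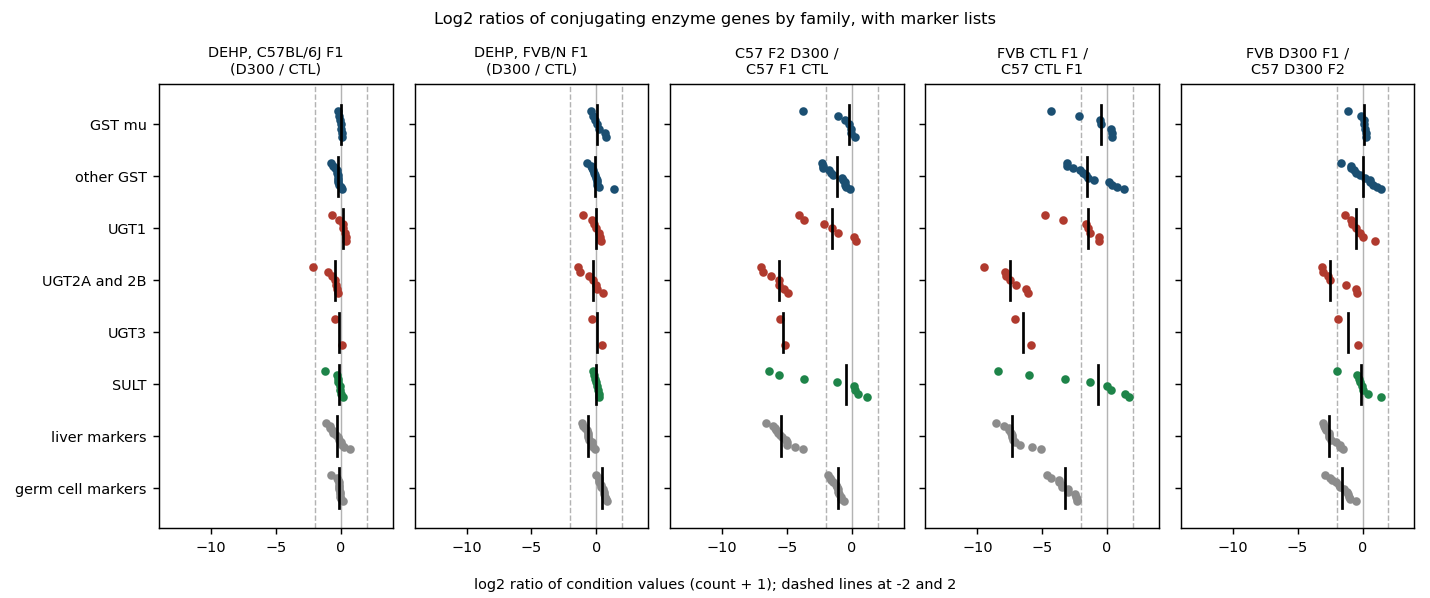
Log2 ratios of condition values (count plus 1) for members with a mean of at least 10 counts, by family, and for 12 liver and 12 germ cell markers in grey, in 5 comparisons; 1 point is 1 gene and the black bar is the median. In the panels for the second generation and for the strains without DEHP the UGT2A and 2B and UGT3 points lie at −4.92 and below, close to the liver markers, while most GST mu points lie near 0.

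Without DEHP, the strains differed in many members. Of the 43 members, 20 were lower and 0 higher in FVB vehicle than in C57 vehicle, beside 8.51% lower and 1.24% higher of all genes, with a median log2 ratio of -1.60 against -0.03 for all genes. They comprised 11 of 16 UGT, 6 of 19 GST and 3 of 8 SULT genes. This comparison shares the C57 vehicle samples with that of the second generation. Of the 20, 14 had fewer than 10 counts in FVB vehicle. FVB/N reads were mapped to the C57BL/6J reference sequence, and the part of sequence differences was not tested.

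The UGT2B genes had few counts in FVB/N. Ugt2b5 had 1.87 counts in FVB vehicle and 0.941 in FVB exposed, at least 695-fold lower than the 2085 of C57 vehicle. Ugt2b36 had 4.48 and 3.60 counts (292-fold lower without DEHP), Ugt2b1 11.3 and 3.59 (196-fold), Ugt2b34 8.52 and 8.97, and Ugt2b35 9.77 and 9.57. Ugt2a3 had 2.70 and 0.564 counts, Ugt3a2 3.13 and 2.26, and Ugt3a1 1.13 and 1.84. Sult2a8 had 9.23 and 10.2 counts, 379.99-fold lower in FVB vehicle than in C57 vehicle. Sult1d1 had 4.75 and 5.61 counts, Sult1b1 8.64 and 8.84, and Gstm3 2.91 and 5.22. In the UGT1 locus, Ugt1a1 had 76.9 and 36.7 counts and Ugt1a9 8.0 and 9.41, the latter again by less than its model SD. Gstz1 had 227 and 235 counts, and Gsto1 24.8 and 24.5.

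Lower in FVB vehicle but short of the threshold in the second generation were Gstm5, Gstp1 and Gstt4. Gstm5 had 2266 and 2303 counts in FVB vehicle and FVB exposed, 4.53-fold below C57 vehicle without DEHP, and its C57 F2 value of 4895 lay between the strains. Gstp1 had 388 and 346 counts, a log2 ratio of -3.07. Gstt4 had 56.8, 58.4 and 35.2 counts in the 3 C57BL/6J conditions and 8.22 in FVB vehicle. Gstm5 shares 13.9% of its exon bases with a gene on the opposite strand, 4933431E20Rik, and the mapping was strand-specific. All 12 sperm and late germ cell markers were lower in FVB vehicle than in C57 vehicle too, with a median of -3.27, beside -2.18 for Gstm5. The liver markers had a median of -7.31, with 12 of 12 lower. The part of either list was not tested. Gsta3 and Ugt1a6b, lower in the second generation, had log2 ratios of -1.48 and -1.50 in FVB vehicle, and Gsta3 had 849 and 864 counts in FVB vehicle and FVB exposed. Gstm1 had 1738 and 1629 counts there and Sult1a1 304 and 263, both short of the threshold.

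Among the other members, some had more counts in FVB/N. Sult1e1 had 232 and 215 counts in FVB vehicle and FVB exposed against 88.0 in C57 vehicle, and Sult5a1 had 88.8 and 104 against 26.7. In C57 F2, Sult1e1 had 205 counts, close to FVB/N, and Sult5a1 had 37.9. The log2 ratios of FVB exposed to C57 F2 were 0.07 for Sult1e1 and 1.43 for Sult5a1. Between the vehicle conditions, the differences of Sult1e1 and Sult5a1 exceeded the model SD, as did those of Gstt3 (704 against 423) and Gsta2 (25.7 against 9.61). In FVB exposed, Gstt3 and Gsta2 had 562 and 15.6 counts. Between the vehicle conditions 4 members were higher and 24 lower in FVB/N by more than the model SD, beside 40.4% of all genes in either direction. Gstm2 had 4239.8 and 3594 counts and Gstm7 2550.4 and 2956, Sult2b1 299.7 and 272, and Sult1c2 170.2 and 166, and none of these differed from C57 vehicle by more than the model SD.

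**Figure D4:**
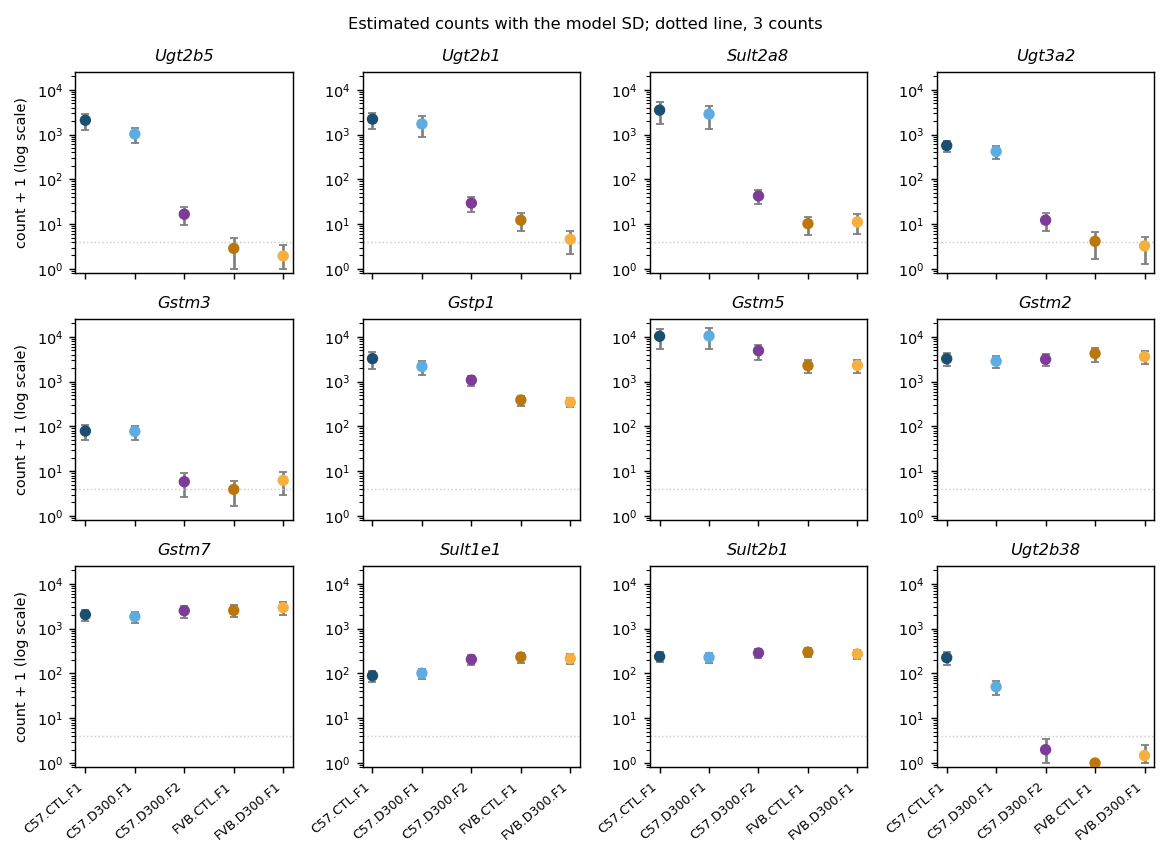
Estimated count plus 1 (log axis) of 12 members in the 5 conditions, with bars of 1 model SD (ending at 0 counts where they would pass below it), which is not a spread between libraries, and a dotted line at 3 counts. Ugt2b5, Ugt2b1, Sult2a8 and Ugt3a2 are far lower in the last 3 conditions than in the first 2, Gstm5 and Gstp1 step down, Gstm2, Gstm7 and Sult2b1 stay level, and Sult1e1 is higher in the last 3.

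The libraries of C57 F2 and FVB exposed were both made for this study and both descend from DEHP-treated females, though they differ in generation as well as in strain. Within these, 4 of the 43 members were lower and 0 higher in FVB/N, beside 1.97% lower and 1.39% higher of all genes, with a median log2 ratio of -0.25. They were Ugt2b5 (15.6 counts in C57 F2 and 0.941 in FVB exposed), Ugt2a3 (11.8 and 0.564), Ugt2b1 (28.4 and 3.59) and Ugt2b36 (25.6 and 3.60). All 4 rest on fewer than 30 counts in the higher condition, and with 10 added to each count in place of 1, 0 members remained past the threshold. Here 9 of 12 liver markers were lower, with a median of -2.57. Of the sperm and late germ cell markers, 4 of 12 were lower, with a median of -1.58, and all 12 epididymis markers were higher, with a median of 7.60. Gstm5 had a log2 ratio of -1.09 and Gstp1 of -1.64 in this comparison. The part of these lists was not tested.

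Genes that lie next to each other did not all have the same pattern. The UGT2 genes and 3 SULT1 genes lie within 702 kb of chromosome 5 (86889767 to 87591594, GENCODE M21 on GRCm38). Of the 13 members there, 10 passed the filter on low counts. Of these, 9 were lower in C57 F2 and 9 in FVB vehicle than in C57 vehicle, beside 3.48% and 8.51% of all genes. Apart from Ugt2b1, those 9 had fewer than 10 counts in FVB vehicle and so passed the filter through other conditions. Sult1e1, which passed the filter but was not lower, lies at 1 end of this stretch next to Sult1d1. Its log2 ratios were 1.21 and 1.39, against -5.59 and -6.01 for Sult1d1. The 7 mu class GST genes lie within 149 kb of chromosome 3 (107895821 to 108044894), where Gstm3 lies between Gstm6 and Gstm2. Gstm3 had log2 ratios of -3.76 and -4.33, while Gstm6 had -0.04 and -0.48 and Gstm2 -0.04 and 0.39. Of the 8 Sult2a genes within 870 kb of chromosome 7, only Sult2a8 passed the filter.

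Promoters are shown because the UGT2B genes and Sult2a8 were high and low in the same conditions. Promoter sequences of RefSeq (GRCm38.p6) were found for 53 of the 61 members, and the 250 bases before each listed start were searched on both strands for 5 short motifs. Those shown here are from 3 UGT2B genes and Sult2a8, which were low in the second generation and in FVB/N, from Gstm5, which was lower in FVB vehicle and short of the threshold in C57 F2, and from Gstm2, which was past the threshold in no comparison. The window of Sult2a8 belongs to a start inside the gene, which spans 14410686 to 14446769 on the minus strand of chromosome 7, and it is shown because its letters match a motif. The window of the upstream start (14446588 to 14446837) matched none of the 5 motifs. Each sequence runs 5′ to 3′ on the gene's own strand, holds no annotated exon base of its gene, and has matches to any of the 5 motifs in capitals. To leave out exon bases, the sequences of Sult2a8, Gstm5 and Gstm2 are cut at their 3′ end to 240, 217 and 217 bases. Positions given below count back from the listed start and not from the end of a cut sequence.
Ugt2b5 (chr5:87140341-87140590, minus strand): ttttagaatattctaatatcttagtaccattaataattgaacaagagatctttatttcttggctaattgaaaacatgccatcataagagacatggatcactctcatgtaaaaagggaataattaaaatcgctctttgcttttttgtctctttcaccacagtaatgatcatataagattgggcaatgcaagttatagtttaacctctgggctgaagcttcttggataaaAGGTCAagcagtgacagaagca
Ugt2b38 (chr5:87424204-87424453, minus strand): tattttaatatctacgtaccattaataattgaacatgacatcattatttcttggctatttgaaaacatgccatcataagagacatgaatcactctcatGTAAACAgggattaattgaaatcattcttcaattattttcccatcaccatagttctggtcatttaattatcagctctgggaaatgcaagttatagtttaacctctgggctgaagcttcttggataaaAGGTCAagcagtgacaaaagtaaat
Ugt2b36 (chr5:87092556-87092805, minus strand): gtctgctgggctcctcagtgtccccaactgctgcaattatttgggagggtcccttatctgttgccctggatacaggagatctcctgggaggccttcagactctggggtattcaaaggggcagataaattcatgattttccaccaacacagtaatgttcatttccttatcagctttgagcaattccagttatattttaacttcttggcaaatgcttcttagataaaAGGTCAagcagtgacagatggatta
Sult2a8 (chr7:14438562-14438801, minus strand): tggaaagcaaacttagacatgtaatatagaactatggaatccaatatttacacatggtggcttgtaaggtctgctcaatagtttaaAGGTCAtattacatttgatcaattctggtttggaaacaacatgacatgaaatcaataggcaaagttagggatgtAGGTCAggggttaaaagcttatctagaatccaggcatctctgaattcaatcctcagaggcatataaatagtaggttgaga
Gstm5 (chr3:107895604-107895820, plus strand): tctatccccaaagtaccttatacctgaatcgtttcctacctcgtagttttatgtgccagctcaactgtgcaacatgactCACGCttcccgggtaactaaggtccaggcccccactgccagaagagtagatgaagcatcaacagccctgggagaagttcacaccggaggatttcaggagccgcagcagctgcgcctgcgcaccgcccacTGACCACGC
Gstm2 (chr3:107986454-107986670, minus strand): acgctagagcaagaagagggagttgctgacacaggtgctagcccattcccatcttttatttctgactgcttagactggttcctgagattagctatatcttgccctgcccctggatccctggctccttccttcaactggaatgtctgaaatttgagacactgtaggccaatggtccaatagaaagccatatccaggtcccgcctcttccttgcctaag

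In the window of at least 1 listed start, the nuclear receptor half-site AGGTCA was present in 7 of 17 genes with a promoter among the 19 lower in C57 F2 than in C57 vehicle, in 3 of 22 other members that passed the filter, and in 15.8% of all 27025 genes with a promoter. The 7 were Sult1b1, Sult2a8, Ugt1a9, Ugt2b5, Ugt2b35, Ugt2b36 and Ugt2b38, and Sult1b1 and Sult2a8 matched at 1 of 2 listed starts. The groups were formed from these same counts, so the shares are a description only. In Ugt2b5, Ugt2b38 and Ugt2b36 AGGTCA began 22, 25 and 25 bases before the start. It lay within a stretch that these paralogs share, so their matches are not independent. In Ugt2b35, of the same family, it began 215 bases before the start. Sult2a8 had 2 matches, 164 and 90 bases before the start whose window is shown in part. The windows of Ugt2b1 and Ugt2b34, which were also low in the second generation and in FVB/N, matched none of the 5 motifs. Ugt2b37, with at most 6.76 counts in any condition, held AGGTCA 39 bases before its start. The forkhead motif TGTTTAC was found in Ugt2b38 and Ugt2b35 of the 17 genes, beside 3.54% of all genes. The antioxidant response element core TGACNNNGC was found in Gsta3 of the 17, in Gstm5 and Gstm7 of the other 22, and in 11.5% of all genes. In Gstm5 it began 42 bases before the start and overlapped 1 of the 2 matches to GCGTG, the aryl hydrocarbon receptor core, which occurred in 2 of the 17 genes, 6 of the 22 and 30.9% of all genes. The direct repeat of the half-site with 1 base between its copies was found in 0 members and in 11 genes overall. A match describes the letters and is not a bound site.

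Genes that supply the donors of these reactions were mostly short of the threshold. Of 13 genes of glutathione supply and turnover with a mean of at least 10 counts, 0 were past the threshold in C57 F2 or FVB vehicle against C57 vehicle, with medians of -0.44 and -0.56. Gclc, the catalytic subunit of glutathione synthesis, had 1963, 1905, 871, 1059 and 927 counts in the 5 conditions. Of the 4 genes of UDP-glucuronic acid supply and removal, 0 were past the threshold, and Ugdh, which makes UDP-glucuronic acid, had 562, 386, 189, 202 and 181 counts. Of 7 genes of PAPS supply and sulfate removal, 0 were lower in the second generation and 1, the PAPS synthase Papss2, was lower in FVB vehicle (477 counts in C57 vehicle, 176 in C57 F2 and 85.0 in FVB vehicle), while its relative Papss1 had 1263, 1474 and 1647.

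Of 10 conjugate transporters, 5 were lower in C57 F2 and 6 in FVB vehicle than in C57 vehicle, beside 3.48% and 8.51% of all genes. Slco1b2, a hepatocyte uptake carrier, had 3780.4 counts in C57 vehicle, 62.4 in C57 F2 and 14.0 in FVB vehicle. In the 5 conditions, Abcc2, the export pump of the bile canaliculus, had 1587, 1804, 60.4, 27.4 and 29.6 counts, and Slco1a1, another uptake carrier, 1519, 1139.9, 35.8, 9.96 and 7.89. Abcc3, which exports conjugates toward the blood, had 681, 943, 505, 1494 and 1705 counts and Abcg2, another export pump, 392, 289, 639.6, 1455 and 625, and both were short of the threshold. Of 12 regulators of these enzymes, 5 were lower in C57 F2 than in C57 vehicle: the nuclear receptors Nr1i2 (the pregnane X receptor), Nr1i3 (the constitutive androstane receptor), Ppara and Hnf4a, and the forkhead factor Foxa3. Their log2 ratios in FVB vehicle lay between −4.84 and −3.15. Hnf4a had 555, 478, 28.7, 18.4 and 17.4 counts and Ppara 607, 789, 84.5, 67.3 and 50.5. Nfe2l2, the factor that binds antioxidant response elements, had 569, 527, 495, 504 and 417, and Ahr, the aryl hydrocarbon receptor, 260.3, 335, 229, 171 and 186, and neither was past the threshold. Rxra, Foxa2 and Foxa1 had log2 ratios of -0.86, -0.77 and 0.93 in C57 F2, also short of it. Of 5 other glutathione transferases that passed the filter, 1 was lower in C57 F2 and in FVB vehicle, the microsomal Mgst1, with 6458, 4067, 336, 269.9 and 528 counts. In the comparison of DEHP with vehicle, 0 genes of these lists were past the threshold in either strain.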

How the data were processed

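Sperm RNA of 5 conditions, each with 5 libraries, was measured by all-RNA-seq. The authors clipped adapters, kept reads of at least 18 bases, mapped them strand-specifically to mm10 with TopHat and quantified genes with Cuffdiff. The deposited signal is 1 estimated count per gene and condition over 5 libraries, not divided by gene length, and the other deposited columns used hold the variance of that count under the authors' model. How Cuffdiff scaled the libraries, and its annotation, are not given in the sources used here. Genes without an OK status were treated as missing, and all 61 members had it in every condition.

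Members were matched by symbol. Log2 ratios used a pseudocount of 1, with calls at 2 log2 units among genes with a mean of at least 10 counts over the 5 conditions. A gene can pass this filter through its high conditions alone. Counts of single libraries were not used, so count models were not run. The members, lists and thresholds were chosen with earlier results of these data known. Counts are given for members with at least 100 counts in 1 condition or past the threshold, and other members by name and range. Of the lists, up to 5 genes with the highest mean are named, and Hnf4a, Nr1i2, Nr1i3, Foxa1, Foxa2, Foxa3 and Ahr beyond these were named after their values were seen. Exonic length, positions and coding identity (global alignment of the longest coding sequence) came from GENCODE M21 and promoters from RefSeq. Protein sequences were not used here, and 1 regulator and 1 motif of the fixed lists are not reported here. Python 3.11.15, numpy 2.4.6, pandas 2.3.3, matplotlib 3.10.9 and biopython 1.88 were used. The counts limit precision for counting error only. The alternatives were scaling to equal totals or by median-of-ratios factors, pseudocounts of 0.1 and 10, other filters, a threshold of 1 log2 unit, and a difference also above its model SD.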

Additional observations from a re-analysis of the deposited data

How the results depend on the processing

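No paired analysis was possible because the table combines the 5 libraries of each condition into 1 value, and for the same reason leaving out single libraries was not run. No call changed direction under any alternative tried. Medians near 0 did: that of the members for DEHP in FVB/N was −0.03 and became 0.02 with no filter on low counts, and that for the difference between strains in the DEHP ratio was 0.20 and became −0.08 with counts scaled to equal totals. With no filter, the SULT median became 0.27 for the second generation against vehicle and 0.33 against the first generation, from −0.47 and −0.29, and 0.12 for DEHP in FVB/N from −0.0023. Scaling to equal totals or by median-of-ratios factors, the filter on the highest compared condition and the model SD left each count of members within 1.5 times its value and each median within 0.5 log2 units. Scaling to equal totals moved the median of all genes by up to 0.27 and gave 15 members lower in the second generation and 18 in FVB vehicle, and within the newly made libraries it gave 6 members lower, with all genes split into 178 higher and 500 lower against 232 and 330 as deposited. For the difference between strains in the DEHP ratio it split all genes into 120 higher and 48 lower against 147 and 29.

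Other settings moved some counts. A threshold of 1 log2 unit gave 3 members lower for DEHP in C57BL/6J, 1 higher and 3 lower for DEHP in FVB/N, 1 higher in the second generation against either first generation condition, 3 higher in FVB vehicle, 3 higher and 10 lower within the newly made libraries, and 3 higher and 2 lower for the difference between strains in the DEHP ratio. A mean of at least 100 counts gave 0 lower for DEHP in C57BL/6J, 13 lower in FVB vehicle and 0 for the strain difference in the DEHP ratio. A pseudocount of 0.1 gave 1 member higher and 1 lower for DEHP in FVB/N, and a pseudocount of 10 gave 0 lower for DEHP in C57BL/6J and 0 within the newly made libraries. With no filter on low counts the median log2 ratio of the members was −0.96 for the second generation against vehicle, −0.54 against the first generation and −0.99 for FVB vehicle, where genes with few counts lie near 0 by construction. For single members, a log2 ratio was counted as moved where it changed by at least its own SD under the authors' model. Of 1092 values of single members under other scalings or pseudocounts, 30 moved, all under the pseudocounts.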
